A study of Mus musculus with 10 samples.

Results

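The gene set described here comprises 7 G protein-coupled receptors for lipids that place B cells within the spleen and its follicles, together with 1 G protein subunit that acts below some of them. They are the sphingosine-1-phosphate receptors S1pr1, S1pr2, S1pr3 and S1pr4, the oxysterol receptor Gpr183, the lysophosphatidylserine receptors Gpr34 and Gpr174, and Gna13. The members were chosen by symbol, and all 8 were among the 17204 genes tested, out of 18194 gene symbols on the array. Each gene was read from the probe set (a group of short oligonucleotides for 1 transcript) that carries only its symbol and has the highest mean over all arrays. Of the 19 probe sets that carry a member's symbol alone, the other 11 are given beside the main ones, and 3 members, S1pr1, S1pr4 and Gpr34, have only 1.

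The study measured total RNA of sorted splenic B cells on 10 Affymetrix mouse oligonucleotide arrays, 1 array per sample. Naive B cells came from unimmunized Balb/c mice (n = 4). Germinal center (GC) B cells came from Balb/c-background mice of the VH186.2-Tg JH KO (B1-8) line (n = 3) or the V23-Tg JH KO (V23) line (n = 3). Mice of both lines carry a transgenic heavy chain allele and a targeted deletion of the endogenous JH locus, so their B cells share 1 heavy chain variable gene per line. They were immunized intraperitoneally with 50 µg of alum-precipitated NP-CGG, a hapten coupled to chicken gamma globulin, and cells positive for λ light chain, peanut agglutinin binding and B220 were sorted on day 14. As known from earlier work, the B1-8 heavy chain gives higher affinity for the hapten than V23, so the GC groups compare B cells of different affinity. The naive mice carried neither transgene nor JH deletion and were not immunized, so GC identity, genotype, immunization and the λ and peanut agglutinin gate cannot be told apart in any comparison with naive. All cells were held cold in buffers with sodium azide. Ages and pooling of animals are not given in the sources used here, nor is it stated that replicates came from separate mice, so p-values measure the spread between these samples, which may be technical.

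Sphingosine-1-phosphate is abundant in blood and lymph and scarce inside tissue. S1pr1 couples to Gi and drives B cells toward it, while S1pr2 couples to Gα12 and Gα13, activates RhoA and inhibits migration, which keeps GC B cells in the middle of the follicle. Gpr183, also called EBI2, draws activated B cells to the outer follicle and the T zone border, where its dihydroxycholesterol ligand is made, and GC B cells are known to need low Gpr183. In humans, S1PR2 and GNA13 are recurrently mutated in lymphomas of GC origin.

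Of the 8 members, 2 rose and 6 fell in GC B cells against naive B cells, taking the mean of both GC groups. S1pr2 and Gna13, the receptor and G protein of the confinement pathway, were higher, and S1pr1, S1pr3, S1pr4, Gpr183, Gpr34 and Gpr174 were lower, all at an adjusted p under 0.05 (limma, Benjamini-Hochberg over all tested genes). Calls were common in this comparison: 20.5% of all tested genes were called higher and 21% lower. So 2 of 8 higher is near the background share, and 6 of 8 lower is above it. The 6 GC arrays and the 4 naive arrays did not overlap for any member, which holds for 17% of all tested genes on the higher side and 18.5% on the lower side. The median log2 difference was −1.84 over the 8 members and 0.06 over all tested genes. In bulk samples, fewer cells that express a gene and less of its RNA per cell cannot be told apart.

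**Figure D1:**
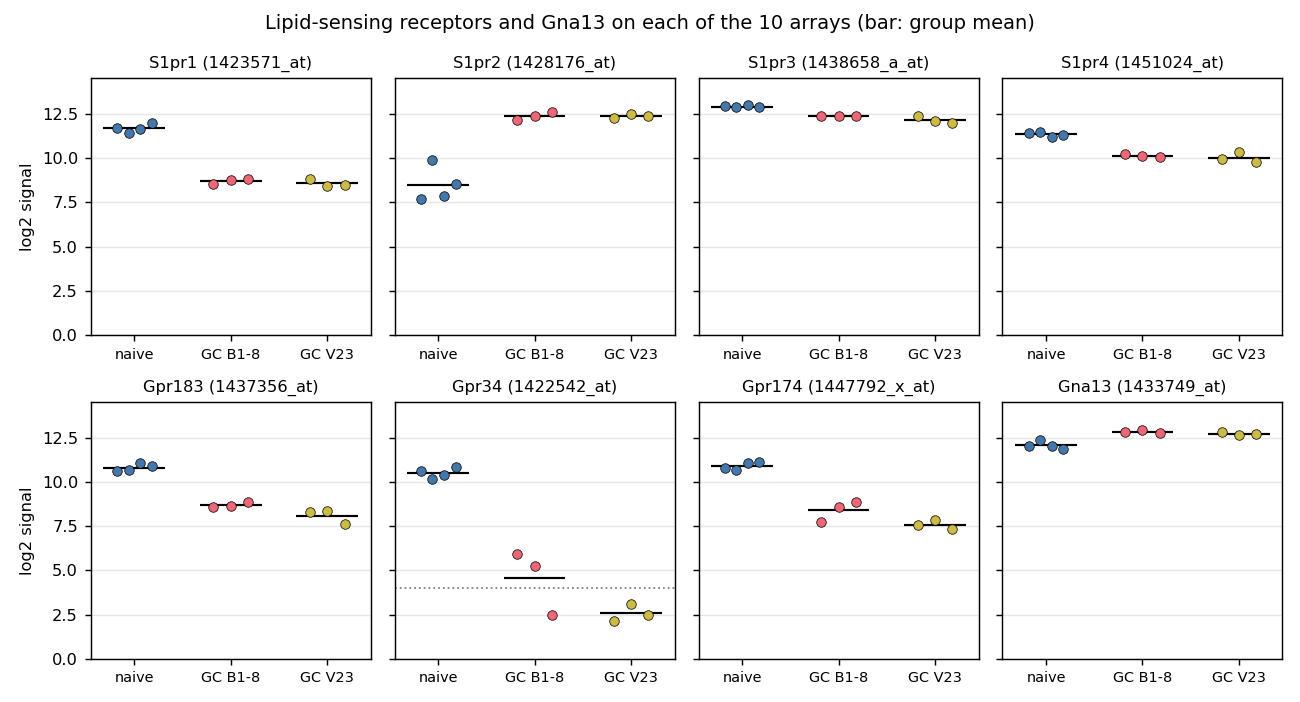
Log2 signal of each member (main probe set) on each of the 10 arrays, 1 panel per gene, with points for arrays and bars for group means, by group (naive n = 4, GC B1-8 n = 3, GC V23 n = 3). S1pr2 and Gna13 lie higher on all 6 GC arrays than on all 4 naive arrays, and the other 6 genes lie lower.

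S1pr2 (probe set 1428176_at), the receptor that inhibits migration, had log2 signals of 7.70, 9.87, 7.88 and 8.53 on the naive arrays. On the B1-8 arrays they were 12.15, 12.36 and 12.61, and on the V23 arrays 12.27, 12.51 and 12.39. All GC arrays were high and close together, whereas naive replicate 2 stood above the other naive arrays, still below every GC array. The difference of the GC mean from naive was 3.89 ± 0.39 (log2, SE, adjusted p = 7.65e-05, limma), or 14.8-fold, and S1pr2 ranked 32nd from the top among all tested genes. Naive replicate 2 also had the highest mean over 7 GC B cell markers among the naive arrays, at 10.83 against 9.55, 9.65 and 10.22 (log2), and the part of that in the S1pr2 level was not tested. Without naive replicate 2 the rise was 4.35. The other S1pr2 probe set, 1447880_x_at, ranged from 7.20 to 9.31 on naive arrays and from 11.08 to 11.39 on GC arrays, and rose by 3.32.

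Gna13 (1433749_at) encodes Gα13, which carries the S1pr2 signal to RhoA. Its signals were 12.04, 12.36, 12.03 and 11.83 on naive arrays, 12.82, 12.90 and 12.75 on B1-8 arrays, and 12.83, 12.65 and 12.69 on V23 arrays. The groups did not overlap, but the gap between the highest naive and the lowest GC array was only 0.29. Gna13 rose by 0.71 ± 0.11 (adjusted p = 0.000813, limma), or 1.64-fold. Its 6 other probe sets rose by more, from 1.00 for 1460317_s_at to 2.44 for 1430295_at, and the mean of all its probe sets rose by 1.57. The main probe set is the brightest of the 7 and showed the smallest rise of them, so the size of the Gna13 difference depends on the probe set while its direction does not.

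The bases upstream of the start site are shown for the 2 genes that rose and for Gpr183, which fell, because KLF-family and FOXO factors and the GC repressor Bcl6 are known regulators of trafficking genes in B cells. RefSeq promoters on GRCm38.p6 were at hand for 6 of the 8 members, all but S1pr1 and Gpr34, which were not searched. The 250 bases before each start were searched on both strands. Capitals mark the only motif found, CCNCNCCC (KLF-type, its reverse complement included), printed 5′ to 3′ on the gene's strand. S1pr2 is at chr9:20976794-20977043 (minus strand), Gna13 at chr11:109362544-109362793 (plus) and Gpr183 at chr14:121965194-121965443 (minus).
S1pr2: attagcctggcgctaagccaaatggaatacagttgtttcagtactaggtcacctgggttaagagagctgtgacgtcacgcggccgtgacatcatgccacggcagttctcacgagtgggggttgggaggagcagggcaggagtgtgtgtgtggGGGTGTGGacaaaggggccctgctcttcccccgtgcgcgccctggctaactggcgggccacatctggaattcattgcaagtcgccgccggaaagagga
Gna13: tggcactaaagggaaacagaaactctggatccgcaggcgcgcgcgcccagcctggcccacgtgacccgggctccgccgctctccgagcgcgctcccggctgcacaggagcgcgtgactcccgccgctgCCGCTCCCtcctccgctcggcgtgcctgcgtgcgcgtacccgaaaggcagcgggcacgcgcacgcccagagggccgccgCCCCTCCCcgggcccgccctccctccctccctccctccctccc
Gpr183: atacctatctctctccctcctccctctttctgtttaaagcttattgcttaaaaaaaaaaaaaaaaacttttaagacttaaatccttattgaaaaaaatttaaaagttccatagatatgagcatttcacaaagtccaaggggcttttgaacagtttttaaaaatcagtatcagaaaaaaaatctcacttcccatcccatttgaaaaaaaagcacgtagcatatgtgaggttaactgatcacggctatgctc
S1pr2 holds 1 match, whose first base lies 98 bases before the start, Gna13 holds 2, at 122 and 43 bases, and Gpr183 holds none. S1pr3, which fell, holds 3, and S1pr4 and Gpr174, which also fell, hold none. Whether matches go with the direction of the difference was not tested. The motif is common, present in 45.9% of 32851 promoters. GTAAACA (FOXO-type) and TTCNNNGAA (Bcl6 and STAT-type) were found in 0 of the 6, against 3.17% and 7.02% of all promoters. The 3 printed stretches differ in base composition, with G and C making up 59.2% in S1pr2, 76.0% in Gna13 and 32% in Gpr183, and a median of 52.4% over all promoters.

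S1pr1 (1423571_at), the receptor that leads B cells toward blood and lymph, read 11.72, 11.39, 11.67 and 12 on naive arrays. The B1-8 arrays read 8.56, 8.75 and 8.81, and the V23 arrays 8.84, 8.45 and 8.47. Both GC groups were low and interleaved, with a gap of 2.56 to the lowest naive array. S1pr1 changed by −3.05 ± 0.14 (log2, SE, adjusted p = 1.84e-06, limma), which is 8.28-fold lower, and ranked 127th from the bottom.

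S1pr3 (1438658_a_at), through which marginal zone B cells also sense sphingosine-1-phosphate, was bright everywhere. Naive arrays had 12.92, 12.87, 12.99 and 12.87, B1-8 arrays 12.37, 12.39 and 12.40, and V23 arrays 12.39, 12.08 and 11.98. The groups were separate but close, and the difference was −0.64 ± 0.09 (adjusted p = 0.000486, limma), or 1.56-fold lower. The next brightest S1pr3 probe set, 1437173_at, also fell, by 0.69, while the dimmest, 1460661_at, was at −0.43 ± 0.25 (adjusted p = 0.213, limma) with overlapping groups. The S1pr3 call also ended when arrays were centred on pan B cell markers, at −0.13 (adjusted p = 0.306, limma).

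S1pr4 (1451024_at), a receptor largely restricted to blood cells, read 11.40, 11.45, 11.21 and 11.32 on naive arrays. It read 10.21, 10.14 and 10.05 on B1-8 arrays and 9.96, 10.33 and 9.79 on V23 arrays. The groups did not overlap, and S1pr4 changed by −1.26 ± 0.11 (log2, adjusted p = 4.32e-05, limma), or 2.40-fold lower. Of the 4 sphingosine-1-phosphate receptors, then, S1pr2 was the 1 that rose. Their log2 differences ran from −3.05 for S1pr1 over −1.26 for S1pr4 and −0.64 for S1pr3 to 3.89 for S1pr2.

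Gpr183 (1437356_at), the oxysterol receptor, had signals of 10.62, 10.66, 11.05 and 10.87 on naive arrays. B1-8 arrays had 8.58, 8.63 and 8.86, and V23 arrays 8.27, 8.36 and 7.64. Every GC array was below every naive array, and all V23 arrays were below all B1-8 arrays. Against naive, Gpr183 changed by −2.41 ± 0.16 (log2, SE, adjusted p = 9.97e-06, limma), or 5.32-fold lower, and ranked 250th from the bottom. The dimmer probe set 1457691_at fell by 1.40, from 9.10 to 9.58 on naive arrays to between 7.70 and 8.47 on GC arrays.

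Gpr34 (1422542_at), a lysophosphatidylserine receptor, showed the lowest log2 difference of all tested genes on the values as deposited. Naive arrays read 10.59, 10.15, 10.41 and 10.81. B1-8 arrays read 5.94, 5.27 and 2.48, and V23 arrays 2.14, 3.09 and 2.46. The naive arrays were tightly grouped, while the GC arrays spread widely, with 4 of 6 below the log2 value of 4 used as the filter on low values. Gpr34 changed by −6.93 ± 0.61 (adjusted p = 3.56e-05, limma). The files give no detection calls, and values this low have an uncertain scale: with every value below 4 raised to 4 the change was −5.96 ± 0.33, and with a floor at 6, under which all 6 GC arrays lie, −4.49.

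Gpr174 (1447792_x_at), another lysophosphatidylserine receptor of lymphocytes, encoded on the X chromosome, read 10.79, 10.66, 11.05 and 11.11 on naive arrays. Signals were 7.74, 8.55 and 8.88 on B1-8 arrays and 7.55, 7.85 and 7.34 on V23 arrays. The GC arrays were all lower, with the higher values mostly in B1-8. Gpr174 changed by −2.92 ± 0.22 (log2, SE, adjusted p = 1.87e-05, limma), or 7.56-fold lower, and ranked 148th from the bottom. Its dimmer probe set, 1440900_at, also fell, from between 9.44 and 9.85 on naive arrays to between 7.86 and 8.62 on GC arrays, a smaller difference in the same direction.

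**Figure D2:**
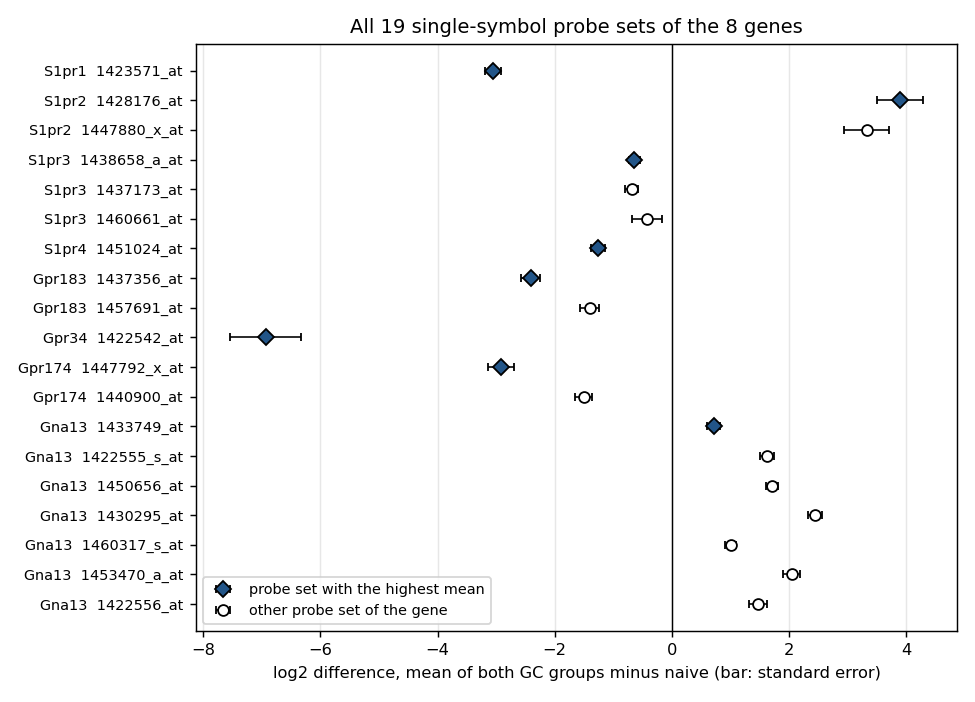
Log2 difference of the mean of both GC groups from naive for all 19 probe sets of the 8 genes, main probe set and others, with bars for the standard error (limma over all probe sets above the filter). All 7 Gna13 probe sets lie above 0 and the main one is the lowest of them, and the dimmest S1pr3 probe set (−0.43) is the only 1 whose test did not pass.

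**Figure D3:**
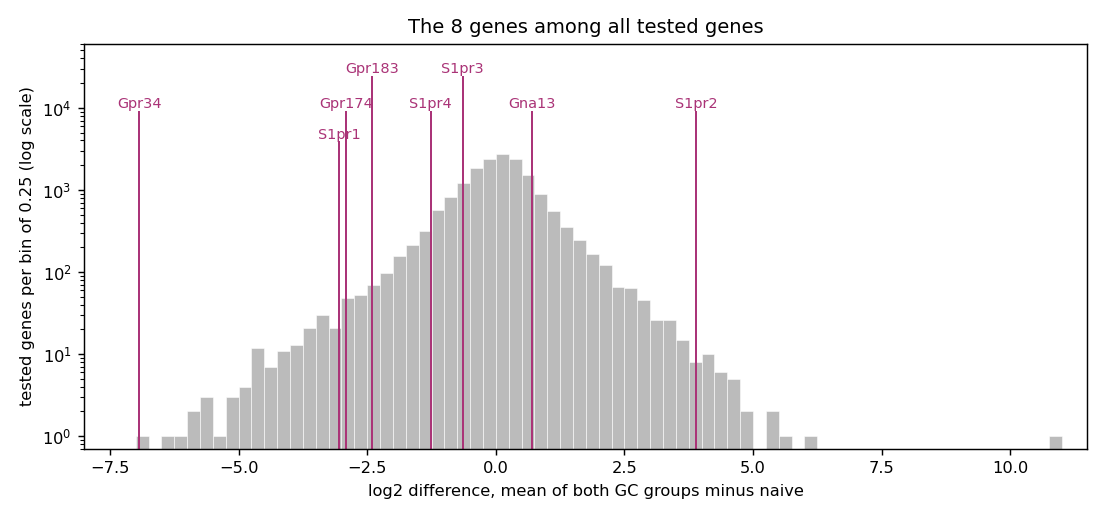
Histogram of the log2 difference of the mean of both GC groups from naive over the 17204 tested genes (number of genes per bin on a log axis), with lines at the 8 members. Gpr34 (−6.93) lies at the low end and S1pr2 (3.89) in the high tail, while S1pr3 (−0.64) and Gna13 (0.71) lie within the body.

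Each GC group was next set against naive on its own. Both comparisons use the same 4 naive arrays, so they are not independent, and their values are given side by side. The same 2 members were higher and 6 lower in each, where 16.4% and 17.3% of all tested genes were called higher and lower in B1-8, and 18.2% and 19.7% in V23. S1pr2 rose by 3.88 in B1-8 and 3.90 in V23, and Gna13 by 0.76 and 0.66. S1pr1 changed by −2.99 and −3.11, S1pr4 by −1.21 and −1.32, and S1pr3 by −0.53 and −0.76. For Gpr183 the values were −2.11 and −2.71, for Gpr174 −2.51 and −3.32, and for Gpr34 −5.93 and −7.93. The median over the members was −1.66 in B1-8 and −2.01 in V23, against 0.05 and 0.06 over all tested genes.

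The direct comparison of the GC groups bears on the affinity of the transgenic heavy chain, although each line also differs in its transgene. No member was called (limma, adjusted p under 0.05). Among all genes 1 was higher in B1-8, 0.00581% of those tested, and 3 were lower, 0.0174%. At an unadjusted p under 0.05 there were 3 members, Gpr183, Gpr174 and Gpr34, where 7.72% of all tested genes met that threshold. Gpr183 was higher in B1-8 by 0.60 (log2, 95% confidence interval 0.13 to 1.07, adjusted p = 0.564, limma). It was the only member whose 3 B1-8 and 3 V23 arrays did not overlap, which occurred for 7.07% of tested genes on the higher and 6.63% on the lower side. Gpr174 was higher in B1-8 by 0.81 (0.16 to 1.46, adjusted p = 0.565, limma), with 1 B1-8 array inside the V23 range. On the dimmer probe sets of these genes the differences were smaller. They were 0.47 (0.008 to 0.92) for Gpr183 and 0.38 (−0.04 to 0.80) for Gpr174. Gpr34 differed by 2.00 (0.24 to 3.75, adjusted p = 0.602, limma), and by 1.07 ± 0.41 with a floor at log2 4 (SE, adjusted p = 0.563, limma). A floor at log2 6 lies above all 6 GC arrays, so the difference of 0 there was fixed in advance. For S1pr1 the difference was 0.12 (−0.28 to 0.51), for S1pr2 −0.02 (−1.15 to 1.11), for S1pr3 0.23 (−0.02 to 0.49), for S1pr4 0.11 (−0.23 to 0.44) and for Gna13 0.10 (−0.22 to 0.41). These intervals leave room for differences of either sign, and for S1pr2 for more than 1 log2 unit.

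**Figure D4:**
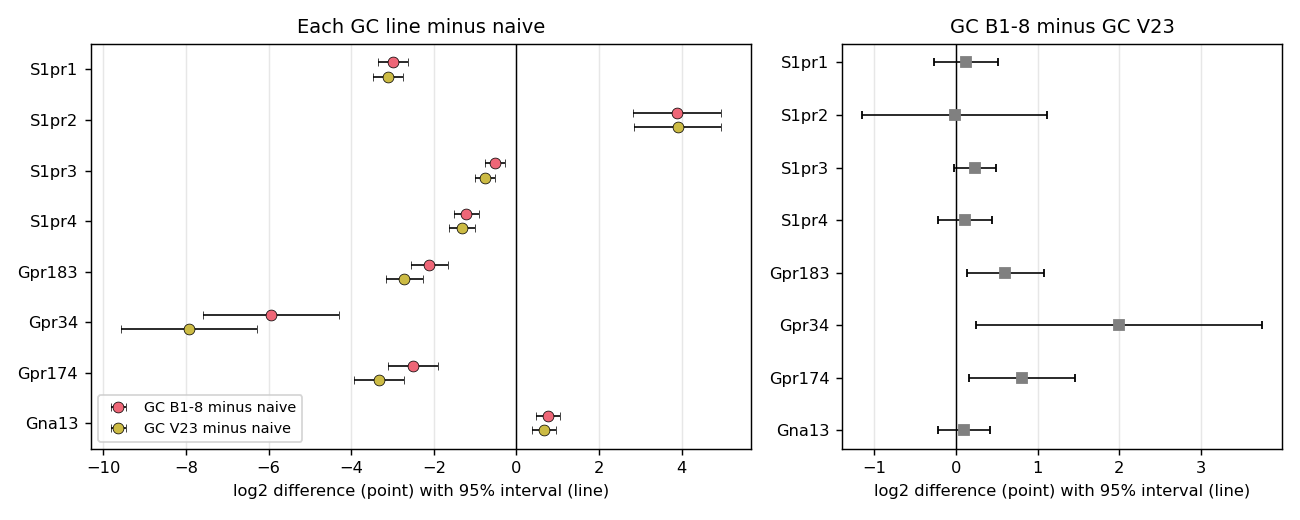
Log2 difference of each member with its 95% confidence interval (limma, all 10 arrays in 1 fit) for each GC group set against naive B cells and for the B1-8 group set against the V23 group. The differences from naive keep clear of 0 for all 8 genes, while between the GC groups the intervals of Gpr183, Gpr174 and Gpr34 lie above 0 without adjustment and none passes after it.

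Genes that act with the receptors were counted in 6 lists by role, 104 genes listed and 91 tested. In the GC mean against naive 22 were higher and 34 lower, with a median log2 difference of −0.11. Against the background of 20.5% and 21% given above, the share of related genes lower was above that of all genes, and the share higher was close to it. Of these 91 genes 0 were called between the GC groups (limma), and 9 had an unadjusted p under 0.05.

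Of the tested enzymes and transporters that supply or break down sphingosine-1-phosphate, 17 of 18 listed, 2 were higher and 7 lower (median −0.15). Spns2, a sphingosine-1-phosphate exporter, changed by −2.16 ± 0.15 (log2, SE), the lipid phosphatase Plpp3 by −4.77 ± 0.53, the ceramide synthase Cers4 by −0.92 ± 0.10 and the ceramidase Acer3 by −0.80 ± 0.10. The Acer3 call ended with centring on pan B cell markers (−0.28) and with the mean of its probe sets (−0.30). Sgpl1, the lyase that degrades the lipid, was at −0.56 ± 0.11 (adjusted p = 0.00386, limma), a call that ended with the same centring (−0.05) and the mean of its probe sets (−0.68, adjusted p = 0.116). The kinase Sphk1 was at 0.42 ± 0.33 (adjusted p = 0.354, limma), but was called at 0.76 without naive replicate 4 (adjusted p = 0.0274, limma). Another lipid phosphatase, Plpp1, named after its value was seen, rose by 3.81 ± 0.53, opposite to Plpp3.

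The oxysterol list had 0 higher and 3 lower of 7 (median −0.31). Cyp27a1 and Cyp39a1, which hydroxylate sterols, changed by −1.99 ± 0.20 and −1.57 ± 0.15, but Cyp27a1 was at −0.39 and not called with the mean of its probe sets (adjusted p = 0.261, limma). Hsd3b7, which removes the Gpr183 ligand, was at −0.31 ± 0.09 (adjusted p = 0.0267, limma). That call ended under 12 of 21 alternatives, with −0.02 after quantile normalization, 0.20 with centring on pan B cell markers, and adjusted p up to 0.0823 when naive replicate 1, 2 or 4, B1-8 replicate 2 or 3, or V23 replicate 2 was left out. The enzymes that make that ligand were not called: Ch25h was at −0.19 ± 0.27 (adjusted p = 0.609, limma) and Cyp7b1 at 0.30 ± 0.37 (adjusted p = 0.551, limma). Other receptors for lysophospholipids and their ligand enzymes had 2 higher and 5 lower of 12 tested, with 19 listed (median −0.14). Lpar6, for lysophosphatidic acid, changed by −2.07 ± 0.11, P2ry10, a lysophosphatidylserine receptor related to Gpr174, by −1.98 ± 0.18, the proton-sensing Gpr65 by −1.46 ± 0.08 and Gpr132 by −1.14 ± 0.23. These 4 were named for their small p, and the Gpr132 call ended with centring on pan B cell markers (−0.62, adjusted p = 0.059, limma). Ptafr at 1.27, Lpar1 at 0.69 and Lpar2 at 0.01 were not called, while P2ry10b, named after its value was seen, fell by 3.23.

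Downstream of Gα12 and Gα13 the list went both ways, with 6 higher and 6 lower of 18 tested (median 0.05). Gna12, which encodes the sister subunit Gα12, rose by 0.73 ± 0.12. Arhgef1, the exchange factor that links Gα13 to RhoA in B cells, changed by −0.82 ± 0.10, Arhgef11 by −0.86 ± 0.08 and Rhob by −1.70 ± 0.11. The Arhgef1 call ended with centring on pan B cell markers (−0.30, adjusted p = 0.0923, limma), and the Arhgef11 call with the mean of its probe sets (−0.31, adjusted p = 0.129, limma). Rhoa itself was at 0.31 ± 0.09 on its main probe set (adjusted p = 0.0261, limma), a call that ended under 10 of 21 alternatives. Rhoa was at −0.27 when its probe sets were averaged and at 0.19 after quantile normalization. Without naive replicate 1, 2 or 3, B1-8 replicate 2 or 3, or V23 replicate 2 or 3 its adjusted p was 0.0516 to 0.0792. Gi and Gβγ signalling, which acts below S1pr1 and Gpr183, had 7 higher and 5 lower of 21 tested (median 0.04). Gnb4, a Gβ subunit, rose by 1.58 ± 0.13 and the kinase subunit Pik3cg by 1.09 ± 0.07, its partner Pik3r5 changed by −1.31 ± 0.14 and the Rap1 exchange factor Rasgrp2 by −1.34 ± 0.07. Gnai2, the main Gi subunit of lymphocytes, was at 0.08 ± 0.07 (adjusted p = 0.438, limma), but was called higher with the mean of its probe sets (0.39, adjusted p = 0.00617) and with centring on pan B cell markers (0.59, adjusted p = 0.00137).

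The list of genes that desensitise the receptors or control their expression had 5 higher and 8 lower of 16 (median −0.17). Klf2, the transcription factor that switches S1pr1 on in lymphocytes, fell from 12 ± 0.18 in naive (SD, n = 4) to 8.24 ± 0.46 in B1-8 and 8.18 ± 0.19 in V23 (SD, n = 3 each), a change of −3.79 ± 0.18. Arrb1 and Grk3, which uncouple activated receptors, changed by −2.43 ± 0.15 and −2.40 ± 0.17. Cd69, which binds S1pr1 and takes it off the surface, changed by −1.05 ± 0.11. Of the repressors of GC B cells, Bcl6 rose by 1.11 ± 0.12 and Bach2 by 0.83 ± 0.08. Mef2b, a factor that activates Bcl6 and is named after its value was seen, rose by 4.44 ± 0.50.

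**Figure D5:**
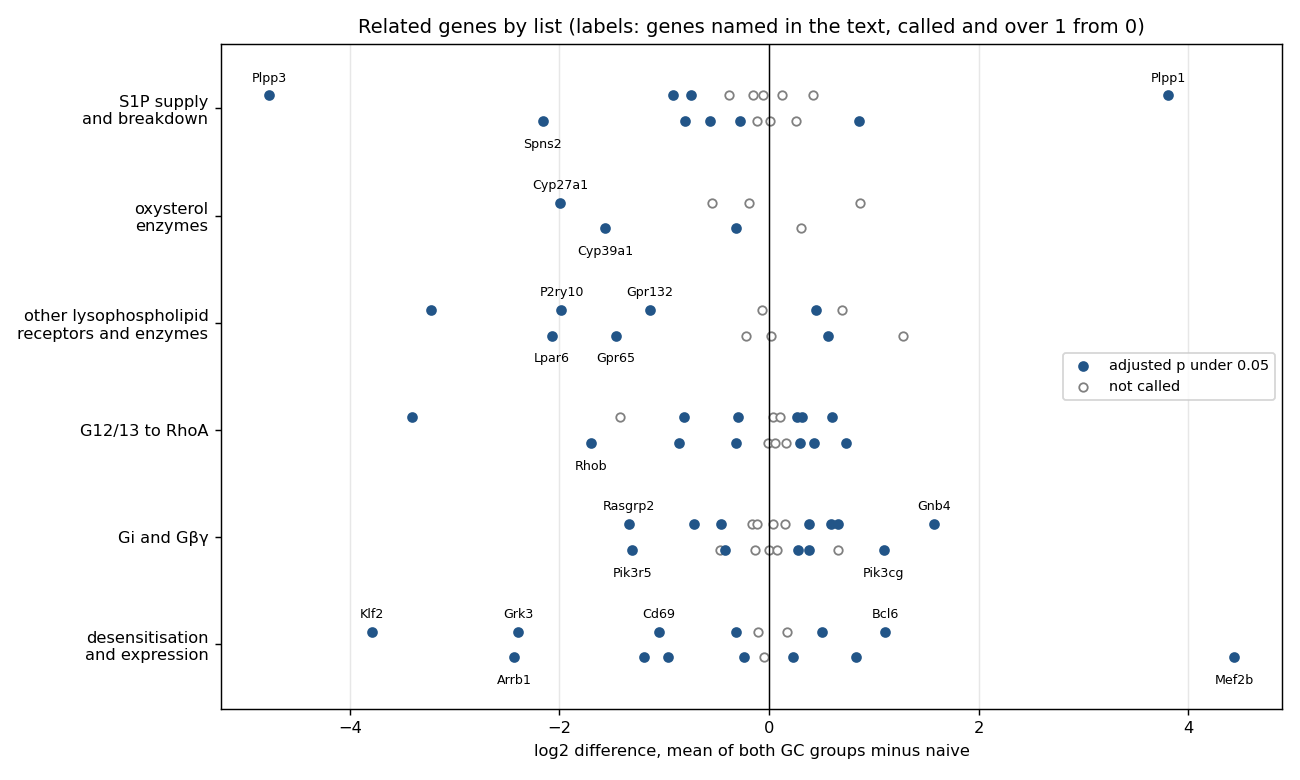
Log2 difference of the mean of both GC groups from naive for each of the 91 tested related genes, 1 row per list, filled where the adjusted p (limma) was under 0.05 and open otherwise. Each of the 6 lists holds called genes below 0, and the oxysterol list holds none above 0.

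Genes whose values followed a member most closely over the 10 arrays were found by the root mean square difference of log2 values after each gene's mean was removed. Such likeness includes the step between naive and GC arrays and is a description. Closest to S1pr2 were E2f8 (0.197), Plxnb2 (0.223) and Esco2 (0.227), and closest to S1pr1 were Anxa6 (0.163), Ccnd2 (0.184) and Utrn (0.186). Gpr183 was followed by Ppm1l (0.162), Cdc42bpb (0.193) and Trim7 (0.203), Gpr174 by Ndrg1 (0.222), Gbp6 (0.262) and Utrn (0.279), and Gna13 by Klhl6 (0.0476), Fem1b (0.0658) and Ntan1 (0.0744). For Gpr34 the closest was Ly6d, at 0.983. The measure is not scaled by a gene's own spread, and Gpr34 signals on GC arrays ran from 2.14 to 5.94, so its values cannot be compared between members.

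Markers of the sorted cells and of other cells moved too. Of the GC B cell markers 6 of 7 tested were higher in the GC mean, and all 4 tested naive follicular markers were lower. Of the pan B cell markers, used above for centring, 2 of 4 tested were lower, Pax5 at −1.32 ± 0.21 and Cd79a at −0.40 ± 0.13 (log2, SE). Cd79b at −0.20 and Ms4a1 at −0.14 were not called. Marginal zone B cells carry S1pr1 and S1pr3, and 5 of 7 of their markers were lower, with a summed signal of 38323 to 42079.5 on naive and 22236 to 25254 on GC arrays. These markers ran from −5.17 for Cd1d1 to 0.10 for Mzb1 (log2). The sum weighs the brightest most, here Cr2 and Mzb1 (naive means 13.96 and 13.42). T cells carry S1pr1, Gpr183 and Gpr174, and 1 of 8 markers was lower, with sums of 1218 to 2167 and 859 to 1476. Macrophages carry Gpr34, and 3 of 8 markers were lower, with sums of 1465 to 3451 and 1016 to 1600 (C1qa did not pass the filter on low values). Endothelial and stromal markers, 2 of 8 lower, summed to 4108 to 4923 and 3389 to 3606, with Cr1l and Pecam1 the brightest (naive means 11.21 and 10.49). Neutrophil markers were higher for 7 of 7, with sums of 2599 to 13705 and 37499 to 61440. Of the tested markers, C1qc (macrophage, naive mean 5.84 and V23 mean 2.58) and Gp9 (platelet, 4.82 and 3.38) were below log2 4 on all V23 arrays, and no marker was on all naive or all B1-8 arrays. The part of these cells in the members' differences was not tested. Naive replicate 4 had the highest mean of the macrophage markers among naive arrays, at 8.41 against 7.02 to 7.55, and the highest naive Gpr34 signal, 10.81. Naive replicate 2, with a macrophage marker mean of 7.55, had the lowest naive Gpr34 signal, 10.15. The part of macrophages in the Gpr34 level was not tested. Replicate 4 was also the highest naive array for the means of T cell (7.78) and neutrophil (10.07) markers.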

How the data were processed

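The values analysed are the log2 probe set signals deposited by the authors, 1 column per array. Per the submitters' processing notes the tool was GCRMA, with no version given. Their form is that of MAS5 output instead, without a floor and with a linear-scale trimmed mean (2% removed per tail) of 500 in all columns. No further normalization was applied. They run from −4.29 to 14.9, with array medians of 6.70 to 7.04. No scanner files, detection calls or genome were used here.

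Of 45101 probe sets, 34958 had 1 gene symbol in GEO's platform annotation, 932 several and 9211 none. Each symbol was represented by its brightest single-symbol probe set on average, and genes above log2 4 on at least 3 arrays were tested. Samples were grouped by their titles and source names. Group means of all 10 arrays were fitted in 1 model with limma 3.58.1 in R 4.3.3 (empirical Bayes, no trend, two-sided, 7 residual degrees of freedom), with Benjamini-Hochberg adjustment over 17204 genes per comparison and a threshold of 0.05. The fit was tested on simulated data. The number of arrays limits the precision. RefSeq promoters were matched by symbol.

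The members, lists and tests were chosen with earlier results of these data known. Named besides the members are, per list, up to 4 genes that passed with the smallest p, and a few key genes of each list. Alternatives were normalization, centring, floors, filter, probe set choice, moderation, array weights, a replicate block, the groups fitted, and each array left out in turn.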

Additional observations from a re-analysis of the deposited data

How the results depend on the processing

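The counts of members called (2 higher and 6 lower against naive for the GC mean, B1-8 and V23, and 0 between the GC groups) stayed within 1.5 times of these values under every alternative run, and leaving out each array in turn gave 2 to 2, 6 to 6 and 0 to 0. Of 696 recomputed values of single members, 4 changed side of the threshold, and 8, all uncalled differences between the GC groups (S1pr1, S1pr2, S1pr4 and Gna13), changed sign. The 4 concern S1pr3, whose call ended for the GC mean (−0.13), B1-8 and V23 with centring on pan B cell markers, and for B1-8 with the mean of its probe sets (−0.45, adjusted p = 0.0505, limma). Gna13 rose by 1.23 under that centring, against 0.71. It moved the median of all genes from 0.06 to 0.58 (0.16 with median centring, 0.12 with quantile normalization) and the calls over all genes from 3521 higher and 3619 lower to 7795 and 1388. Related genes that reversed were Hsd3b7 (0.20 for the GC mean and 0.27 for V23) and Sgpl1 (0.0341 for V23) under the same centring, and Rhoa with the mean of its probe sets (−0.27 for the GC mean, −0.15 for B1-8). Centring shifts all genes of an array by the same amount, set by the mean of the 4 tested pan B cell markers. Those markers were themselves lower in the GC mean, with Pax5 at −1.32, Cd79a at −0.40, Cd79b at −0.20 and Ms4a1 at −0.14 (log2). The centring therefore moved every difference from naive upward. Why the Rhoa probe sets differ was not tested. Over all comparisons, recomputed values of the named related genes stayed on their side of the threshold 2593 times (uncalled values could change sign). They lost the call while keeping their sign 81 times, and gained it 18 times. The 5 reversed values given above lost the call too. Calls over all genes between the GC groups were 1 and 3, with 0 to 12 higher and 0 to 8 lower under the alternatives. Replicate numbers are shared by the groups, but same-numbered arrays did not deviate together (2 of 6 arrays at most correlated best with their own number). With replicate number as a block, 2 members were higher and 6 lower, as without it, and 3303 and 3126 of all genes. A fit with only the groups compared has no separate value for the GC mean. Signals near the low end, as for Gpr34 in GC arrays, limit what can be said of its size.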
